A study of Mus musculus with 22 samples.

Results

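Acetylcholine reaches the CA1 sector of the hippocampus along axons from the basal forebrain and acts there on receptors of 2 families, and the genes described here are the receptor genes Chrm1, Chrm2, Chrm3, Chrm4, Chrna4, Chrna5, Chrna7 and Chrnb2, together with Ache, which encodes the enzyme that ends the signal. The 9 genes were taken by name from a matrix of 23361 genes, and all 9 passed the filter on low values. CA1 mRNA came from 22 female mice, offspring of a Swiss Webster by DBA/C57BL6 F1 cross, with 1 library per mouse. Mice fed ad libitum (AL) were sampled at 5 months (n = 5) and 15 months (n = 6), and so were calorie restricted (CR) mice, whose diet was reduced in carbohydrates (n = 5 and n = 6). Mice were randomly assigned to the diets at the same age, before 5 months. Those sampled at 15 months had therefore also been on their diet for longer. None of the mice carried an engineered allele, and the sample was a dissected piece of tissue rather than a purified cell type. Values are the authors' FPKM, fragment numbers scaled to transcript length and to the mapped fragments of the library. Levels are therefore relative amounts, and comparisons between libraries depend on what else each library holds. Replicate numbers are those of the sample names, which start at 0.

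Muscarinic receptors are coupled to G proteins. The M1 and M3 receptors (Chrm1, Chrm3) act through Gq and phospholipase C, and M1 is the main muscarinic receptor of hippocampal pyramidal neurons. The M2 and M4 receptors (Chrm2, Chrm4) act through Gi and often sit on nerve terminals, where they restrain transmitter release. Nicotinic receptors are ion channels of 5 subunits. Alpha7 (Chrna7) forms channels from copies of itself and is abundant on hippocampal interneurons, whereas alpha4 (Chrna4) assembles with beta2 (Chrnb2) into the high affinity nicotine receptor of the brain, which may take up alpha5 (Chrna5) as an accessory subunit. Acetylcholinesterase splits acetylcholine in the synaptic cleft.

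The libraries differed in their regional markers, and this difference went along with age. A region score was formed in each library as the mean log2(FPKM + 0.1) of 9 neocortex and subiculum markers minus that of 7 CA1 pyramidal neuron markers. The score lay between -3.03 and -1.44 in AL mice at 5 months, between -3.09 and -2.10 in CR mice at 5 months, between -0.24 and 1.53 in AL mice at 15 months and between -3.03 and 0.64 in CR mice at 15 months. The young AL and old AL libraries did not overlap. In AL mice 6 of 7 CA1 markers were called lower at 15 months, while Wfs1 had a log2 fold change of 0.63 (adjusted p = 0.156), and the summed level of the list went from a range of 163.9 to 375.4 FPKM to one of 87.1 to 160.3 FPKM. Of the 9 neocortex and subiculum markers, 4 (Tbr1, Rorb, Cux2, Foxp2) were called higher, with summed levels of the list of 67.4 to 107.5 FPKM at 5 months and 85.0 to 172.4 FPKM at 15 months, whereas Nts and Fezf2 had log2 fold changes of -1.03 and -0.32 and were not called. In AL mice the region score and age therefore cannot be told apart. Markers of other tissues also differed between the AL age groups. Of the choroid plexus markers 4 of 8 were called lower at 15 months (list median -1.80 on the log2 scale), and of the dentate gyrus markers 2 of 7, Dsp and Lct, both at -3.36. The oligodendrocyte markers had a list median of -0.80. Calls in either direction were made for 2 of 6 CA3, 2 of 6 thalamus, 2 of 6 astrocyte, 1 of 5 microglia and 0 of 5 endothelium markers. Of all genes tested, 20.6% were called in this comparison. The part of these lists in the results was not tested. CR replicate 3 at 15 months had the lowest score of its group, -3.03, within the range of the young libraries. The defining markers of cholinergic neurons themselves were near 0 throughout: Chat, Slc18a3, Slc5a7 and Lhx8 were each at 0.304 FPKM or less in every library. In bulk tissue, fewer cells of a type and less RNA per cell cannot be told apart.

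The receptor genes spanned a wide range of levels. In AL mice at 5 months the order of mean FPKM was Chrm1 (47.5), Ache (29.7), Chrm3 (21.9), Chrna7 (16.9), Chrnb2 (16.1), Chrm4 (9.80), Chrna4 (5.14), Chrna5 (2.98) and Chrm2 (1.77). Neighbours in this order were separated with no overlap of libraries down to Chrna7, and again between Chrnb2 and Chrm4 and between Chrm4 and Chrna4. Chrna7 and Chrnb2 overlapped, as did Chrna4, Chrna5 and Chrm2 with their neighbours. At 15 months the AL order was different. Chrm4 had moved to the third place with 19.2 FPKM and stood above Chrm3 (15.6 FPKM) in 6 of 6 libraries, although the ranges of these genes overlapped. Chrna4 (14.1 FPKM) stood above Chrna7 (9.21 FPKM) in 5 of 6 libraries. Chrna5 came last, below Chrm2 in 6 of 6 libraries. The sum over the 9 genes was 152 ± 8.51 FPKM (SD, n = 5) in young and 142 ± 8.42 FPKM (SD, n = 6) in old AL mice.

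**Figure D1:**
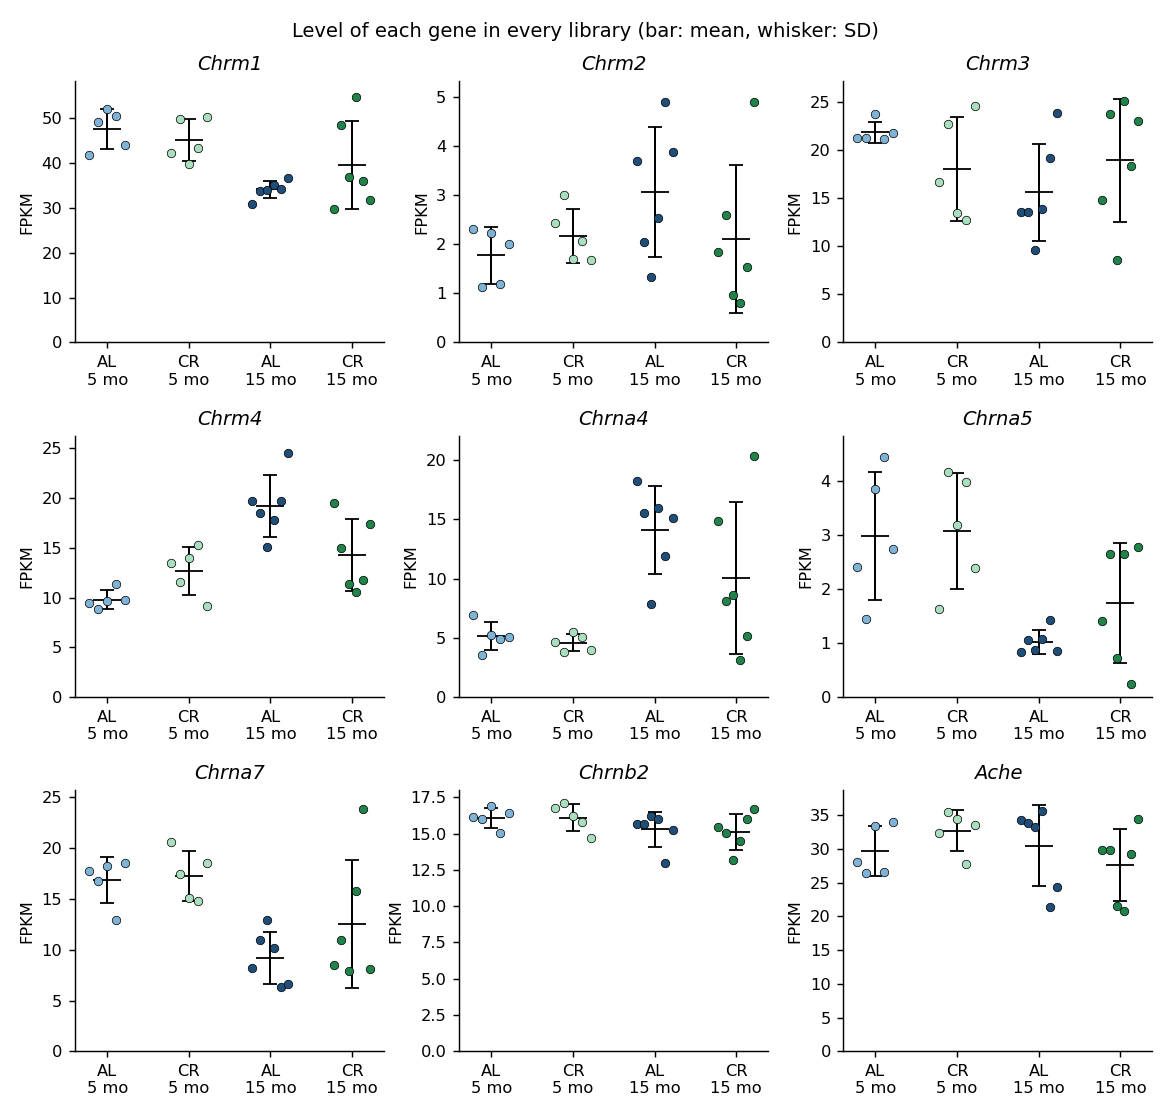
FPKM (vertical axes, from 0) of the 9 genes in each of the 22 libraries by diet group and age, with a point per library, a bar at the group mean and whiskers of 1 SD. Chrm4 and Chrna4 of old AL mice lie above all young AL libraries, Chrm1, Chrna5 and Chrna7 lie below them, and old CR libraries spread over much of both ranges.

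Between 5 and 15 months, AL mice differed in receptor genes in both directions. Chrm4 and Chrna4 were higher at 15 than at 5 months, Chrm1, Chrna5 and Chrna7 were lower, and the tests of Chrm2, Chrm3, Chrnb2 and Ache were not passed. Thus 5 of the 9 genes were called, whereas 20.6% of all 16978 genes tested were called in this comparison, 10.7% higher and 9.97% lower. The median absolute log2 fold change was 0.70 over the 9 genes and 0.20 over all genes tested, and the signed medians were -0.08 and 0.00. Calls were made with limma on log2(FPKM + 0.1) at a Benjamini-Hochberg adjusted p under 0.05, and fold changes are on that scale. In the same 5 genes the libraries of the age groups did not overlap, as was true of 14.0% of all genes tested. Chrna4 and Chrna5 also belong to a calcium signaling list that the study drew from these samples, so that their direction is not independent of it.

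Chrm1 (GRCm38 chr19:8663789-8683587, plus strand), the most abundant receptor gene of the set, had 41.8, 49.1, 52.1, 50.5 and 43.9 FPKM in the AL libraries at 5 months. At 15 months the lowest, median and highest AL libraries had 30.8, 34.1 and 36.6 FPKM. Every old library was thus below every young one, and the old libraries lay close together. The mean fell by 28.2%, from 47.5 ± 4.42 (SD, n = 5) to 34.1 ± 1.91 FPKM (SD, n = 6), a log2 fold change of -0.47 ± 0.12 (SE) with an adjusted p of 0.0103. By an exact two-sided permutation test over libraries p was 0.00216, the smallest that 5 against 6 mice can give.

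Chrm3 (chr13:9875486-10360847, minus strand), the other Gq-coupled receptor of the set, was tightly grouped in young AL mice, with 21.3, 21.3, 23.8, 21.2 and 21.8 FPKM. In old AL mice its lowest, median and highest values were 9.65, 13.7 and 23.9 FPKM. Of the 6 old libraries, 5 were below all young ones and replicate 5 was slightly above them all. The log2 fold change was -0.54 ± 0.25 (SE), and the adjusted p was 0.131. Fitted with the replicate number as a block, the fold change was -0.65 and the adjusted p was 0.0345, but the numbers were not found to pair the mice.

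Chrm4 (chr2:91927249-91928688, plus strand) had the smallest adjusted p of the set. The young AL libraries had 9.42, 8.88, 9.62, 11.3 and 9.75 FPKM, and the lowest, median and highest old AL libraries had 15.1, 19.1 and 24.5 FPKM. The highest young library was well below the lowest old one. The mean rose 1.96-fold, from 9.80 ± 0.913 to 19.2 ± 3.09 FPKM (SD, n = 5 and n = 6), with a log2 fold change of 0.95 ± 0.16 (SE), an adjusted p of 0.000602 and an exact permutation p of 0.00216.

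Chrm2 (chr6:36388084-36528414, plus strand), which shares its Gi coupling with Chrm4, was the least abundant muscarinic gene of the set. It had 2.31, 1.13, 2.24, 1.18 and 2.002 FPKM in young AL mice and 1.33, 3.11 and 4.90 FPKM at the lowest, median and highest of old AL mice. The groups overlapped, with 5 of 6 old libraries above the young median. The log2 fold change was 0.70 ± 0.38 (SE), and the adjusted p was 0.191.

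The balance between muscarinic genes could also be read within each library, where a common scale cancels. Chrm4 FPKM over Chrm1 FPKM was 0.226, 0.181, 0.185, 0.224 and 0.222 in young AL mice and 0.444, 0.561 and 0.669 at the lowest, median and highest of old AL mice. The old libraries were all above the young ones, which follows from the levels, because Chrm4 and Chrm1 each separated the ages in opposite directions. Chrm4 made up 11.7 ± 1.02% of the summed FPKM of Chrm1 to Chrm5 in young AL mice (SD, n = 5) and 26.2 ± 1.91% in old AL mice (SD, n = 6), while the share of Chrm1 was 56.4 ± 2.98% and 47.0 ± 4.398%. The ratio of Chrm3 to Chrm1 was 0.463 ± 0.0387 and 0.456 ± 0.131, with overlapping libraries.

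Chrna4 (chr2:181018380-181043546, minus strand) had the largest rise of the set under AL feeding. Its levels were 6.89, 3.56, 5.27, 4.94 and 5.03 FPKM at 5 months, and the lowest, median and highest at 15 months were 7.88, 15.3 and 18.3 FPKM. The lowest old library, replicate 2, was close to the highest young one, and the other 5 old libraries were well above. The mean rose 2.75-fold, from 5.14 ± 1.19 to 14.1 ± 3.68 FPKM (SD, n = 5 and n = 6). The log2 fold change was 1.42 ± 0.34 (SE) with an adjusted p of 0.00638 and an exact permutation p of 0.00433.

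Its assembly partner Chrnb2 (chr3:89746195-89764632, minus strand) had nearly the same level in every library of the study. It had 16.1, 16.004, 16.9, 15.0 and 16.4 FPKM in young AL mice and 12.9, 15.7 and 16.2 FPKM at the lowest, median and highest of old AL mice. The groups overlapped, and the log2 fold change was -0.08 ± 0.06 (SE) with an adjusted p of 0.418. Chrnb2 shares 1365 of its 8380 exonic bases with Adar, a gene on the opposite strand with a mean of 37.0 FPKM. The library kit does not keep the strand, so reads from the shared stretch cannot be assigned to either gene from their strand.

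Chrna5 (chr9:54980880-55007779, plus strand) fell by 65.9%. Young AL libraries had 2.42, 1.44, 3.86, 4.45 and 2.74 FPKM, and the lowest, median and highest old AL libraries had 0.827, 0.963 and 1.42 FPKM. The highest old value, in replicate 4, was just under the lowest young value, in replicate 1, and the young libraries were spread widely. Means were 2.98 ± 1.19 and 1.02 ± 0.225 FPKM (SD, n = 5 and n = 6), the log2 fold change was -1.39 ± 0.44 (SE), the adjusted p was 0.0318 and the exact permutation p was 0.00216. This call was lost in 5 of the 22 fits that left out a library, with adjusted p up to 0.0804 without AL replicate 2 at 5 months.

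Chrna7 (chr7:63098692-63212569, minus strand) had 17.7, 16.8, 18.3, 13.0 and 18.6 FPKM in young AL mice and 6.33, 9.18 and 12.9 FPKM at the lowest, median and highest of old AL mice. Replicate 3 of the young group was the only young library near the old range. The mean fell by 45.4%, from 16.9 ± 2.28 to 9.21 ± 2.59 FPKM (SD, n = 5 and n = 6), with a log2 fold change of -0.90 ± 0.24 (SE), an adjusted p of 0.0128 and an exact permutation p of 0.00433.

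Ache (chr5:137287519-137294466, plus strand) was the second most abundant gene of the set, and its AL age groups overlapped widely. Young AL libraries had 28.1, 26.4, 33.4, 26.6 and 33.9 FPKM. The lowest, median and highest old AL libraries had 21.4, 33.5 and 35.6 FPKM, with replicates 4 and 5 below all young libraries and the other 4 old libraries near the top of the young range. The log2 fold change was 0.02 ± 0.14 (SE), and the adjusted p was 0.939.

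Among nicotinic genes, several ratios within a library separated the ages. Chrna4 FPKM over Chrna7 FPKM was 0.308 ± 0.0756 in young AL mice (SD, n = 5), with 0.389 as the highest library, and 1.66 ± 0.618 in old AL mice (SD, n = 6), with 0.611 as the lowest. Chrna4 over Chrnb2 was 0.319 ± 0.0729 in young and 0.925 ± 0.230 in old AL mice. Chrna5 over Chrna4 was 0.587 ± 0.229 in young AL mice, with 0.351 as the lowest library, and 0.0778 ± 0.0302 in old AL mice, with 0.120 as the highest. The libraries of the age groups did not overlap in any of these ratios. For Chrna4 over Chrna7 and Chrna5 over Chrna4 this follows from the levels, because both genes of each ratio separated the ages in opposite directions. The summed FPKM of the 4 nicotinic genes was 41.1 ± 3.23 and 39.6 ± 4.31, with overlapping libraries. Ache over Chrnb2 was 1.84 ± 0.173 and 1.98 ± 0.281.

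**Figure D2:**
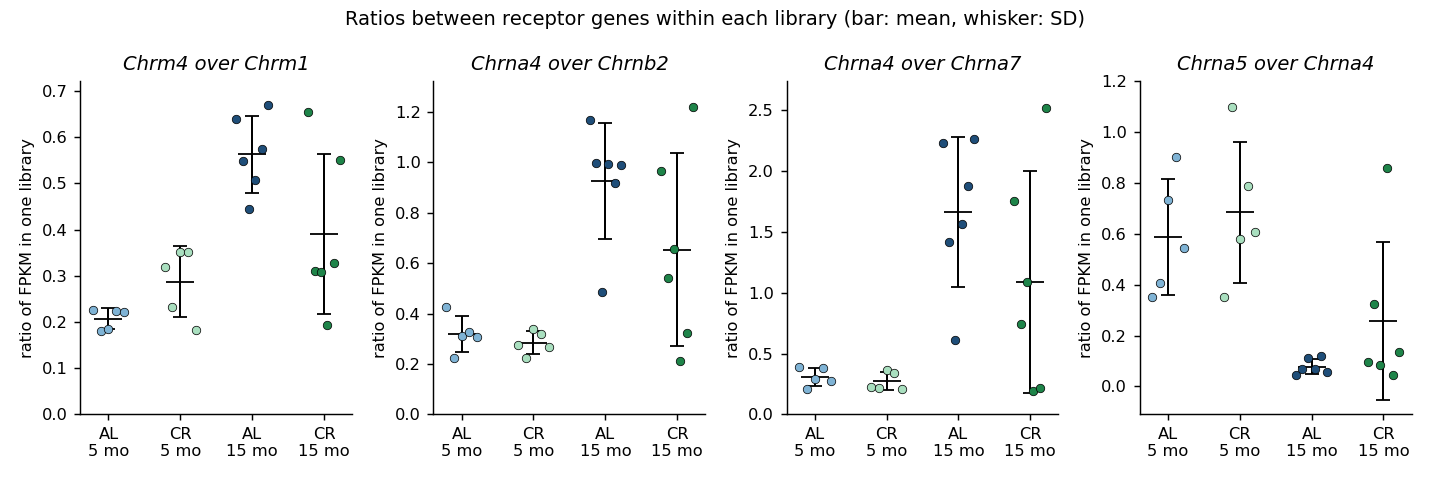
Ratio of the FPKM of 2 receptor genes within each library (vertical axes, no unit) by diet group and age, with a point per library, a bar at the group mean and whiskers of 1 SD. Chrm4 over Chrm1, Chrna4 over Chrnb2 and Chrna4 over Chrna7 of old AL mice lie above all young AL libraries, Chrna5 over Chrna4 lies below them, and CR mice at 15 months cover most of the range.

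Old AL libraries, all with a higher region score than the young ones, had higher Chrm4 and Chrna4 and lower Chrm1 and Chrna7, but within a group the order of libraries by score was not always that of the genes. Among old AL mice, replicate 5 had the highest score (1.53) and also the highest Chrm1 (36.6 FPKM), and replicate 4 (1.39) had less Chrna4 than replicate 3 (-0.24), with 11.9 against 15.9 FPKM. Chrm4 and Chrna7 went more nearly with the score in this group. Replicates 3 and 2, with the lowest scores (-0.24 and -0.02), had 17.8 and 15.1 FPKM of Chrm4 and 10.2 and 12.9 of Chrna7. Replicates 4 and 5, with the highest scores, had 19.7 and 24.5 FPKM of Chrm4 and 6.33 and 6.67 of Chrna7. Old CR mice covered the widest range of scores. Replicate 3, with a score of -3.03, had 54.7 FPKM of Chrm1, 10.6 of Chrm4, 3.08 of Chrna4 and 15.8 of Chrna7. Replicate 0, with a score of 0.64, had 29.8, 19.5, 14.9 and 8.46 FPKM of the same genes. In Chrm1 the remaining old CR libraries lay between these levels, with 48.4, 36.8, 31.7 and 35.9 FPKM at scores of -1.74, -0.67, 0.098 and 0.23. Chrm4, Chrna4 and Chrna7 did not follow the score in all of them, and the cause was not tested. Replicate 4, with a score of 0.23, had 5.18 FPKM of Chrna4 and 23.9 of Chrna7, the highest Chrna7 level of all libraries. Replicate 2, with a score of -0.67, had 7.96 FPKM of Chrna7, the lowest of its group, and 11.4 of Chrm4. Chrnb2 stayed between 12.9 and 17.1 FPKM over all scores.

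With the region score as a covariate in the fit, none of the 9 genes was called for age in AL mice, and neither was any of the 16978 genes tested. The AL age groups did not overlap in this score, so the fit cannot tell age from score in these mice. The log2 fold changes and their SE in that fit were 0.45 ± 0.22 for Chrm4, 0.20 ± 0.47 for Chrna4, -0.33 ± 0.70 for Chrna5 and -0.41 ± 0.39 for Chrna7, with adjusted p of 0.463, 0.909, 0.899 and 0.741. Chrm1 turned to 0.11 ± 0.13, with an adjusted p of 0.784. A second covariate was the mean level of thalamus and medial habenula markers. Of the 5 medial habenula markers, 2 passed the filter on low values, and they were called in opposite directions with age in AL mice. Their log2 fold changes were 0.86 (Tac2) and -0.65 (Gpr151). With this second covariate Chrm4 and Chrna4 were still called. Chrm1, Chrna5 and Chrna7 passed the threshold no longer, although their log2 fold changes were still -0.35, -1.56 and -0.72, with adjusted p of 0.0757, 0.0502 and 0.0779. Interneuron markers, of which 0 of 8 were called with age in AL mice, did not alter the 5 calls when their score was added.

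**Figure D3:**
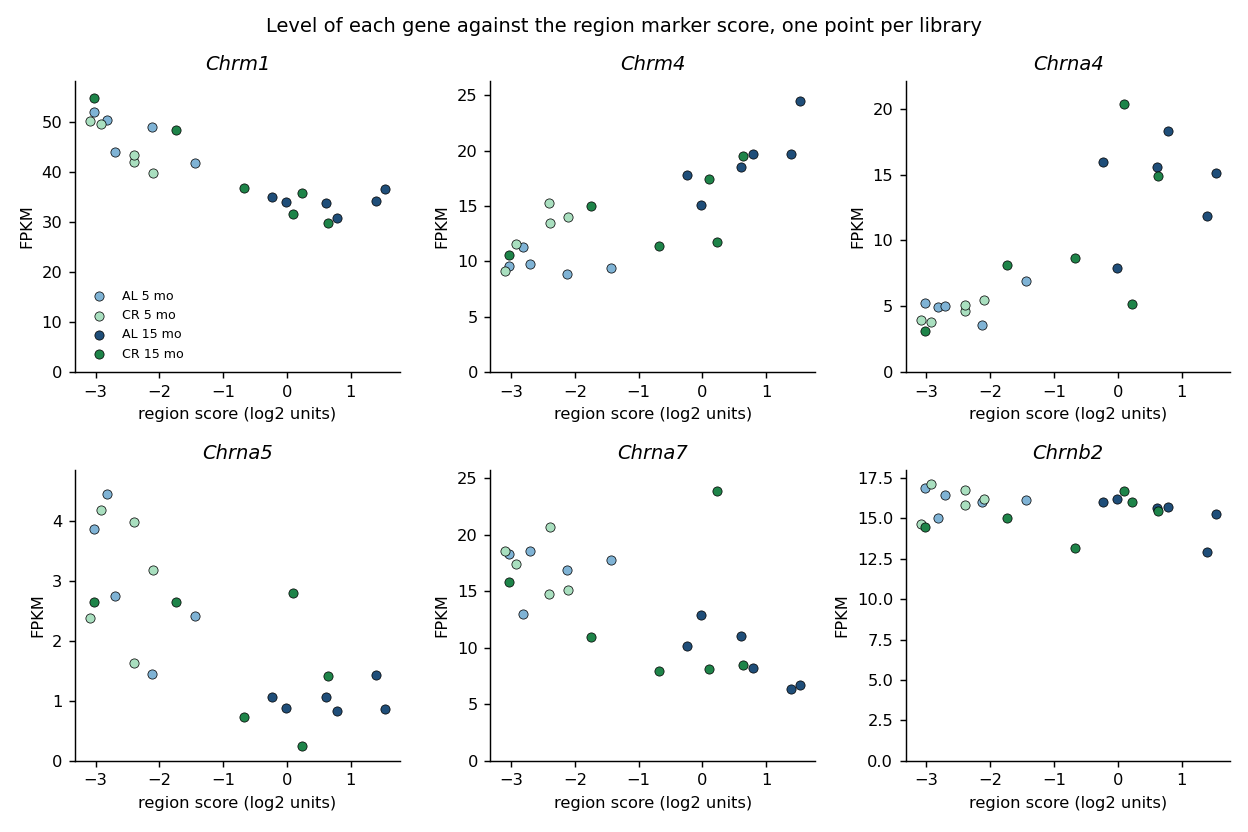
FPKM of 6 receptor genes (vertical axes, from 0) against the region score of each library (horizontal axes, log2 units, neocortex and subiculum markers minus CA1 markers), colored by diet group and age. Young libraries lie at scores of -1.44 or less, old AL libraries at -0.24 or more, and old CR libraries from -3.03 to 0.64, with Chrnb2 nearly level across the axis.

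Under CR the same age comparison called none of the 9 genes by limma, against 3.36% of all genes tested. Unadjusted limma p was under 0.05 for 3 of them, Chrna4, Chrna5 and Chrna7, as for 18.0% of all genes tested. Their log2 fold changes were 0.87 ± 0.34, -1.05 ± 0.44 and -0.58 ± 0.24 (SE), with adjusted p of 0.172, 0.207 and 0.204. In each of the 9 genes the CR age groups overlapped, whereas they did not in 3.26% of all genes tested. Old CR mice were more spread than old AL mice in 8 of the 9 genes by SD: Chrm1, Chrm2, Chrm3, Chrm4, Chrna4, Chrna5, Chrna7 and Chrnb2. The SD of old CR against old AL mice differed little in Chrnb2 (1.24 against 1.19 FPKM), Chrm2 (1.51 against 1.32) and Chrm4 (3.64 against 3.09). The region score was also more spread in old CR mice (SD 1.40 against 0.72), and the share over all genes was not computed. Chrna4 had 4.63, 3.81, 5.48, 5.06 and 3.93 FPKM in young CR mice and 3.08, 8.39 and 20.4 FPKM at the lowest, median and highest of old CR mice. One old library was therefore below all young ones while the highest old library was several times above them. Chrna5 had 1.62, 4.17, 3.18, 3.98 and 2.38 FPKM in young CR mice and 0.241, 2.03 and 2.79 FPKM in old ones, with none of the 6 old libraries above the young median. Chrna7 had 20.6, 17.4, 15.1, 14.8 and 18.5 FPKM in young CR mice and 7.96, 9.72 and 23.9 FPKM in old ones, where replicate 4 was above all young libraries.

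The other members differed less with age in CR mice. Chrm4 had 13.4, 11.6, 14.0, 15.2 and 9.15 FPKM in young and 10.6, 13.4 and 19.5 FPKM at the lowest, median and highest of old CR mice, with a log2 fold change of 0.15 ± 0.16 (SE). Old CR replicates 0 and 5 were above all young CR libraries, and the other 4 were within their range. Chrm1 had a log2 fold change of -0.22 ± 0.12 (SE) with an adjusted p of 0.368. Single libraries decided some of these outcomes. Without CR replicate 3 at 15 months Chrna4 was called, with a log2 fold change of 1.15 and an adjusted p of 0.0260, and without CR replicate 4 Chrna7 was called, with -0.79 and an adjusted p of 0.0307.

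**Figure D4:**
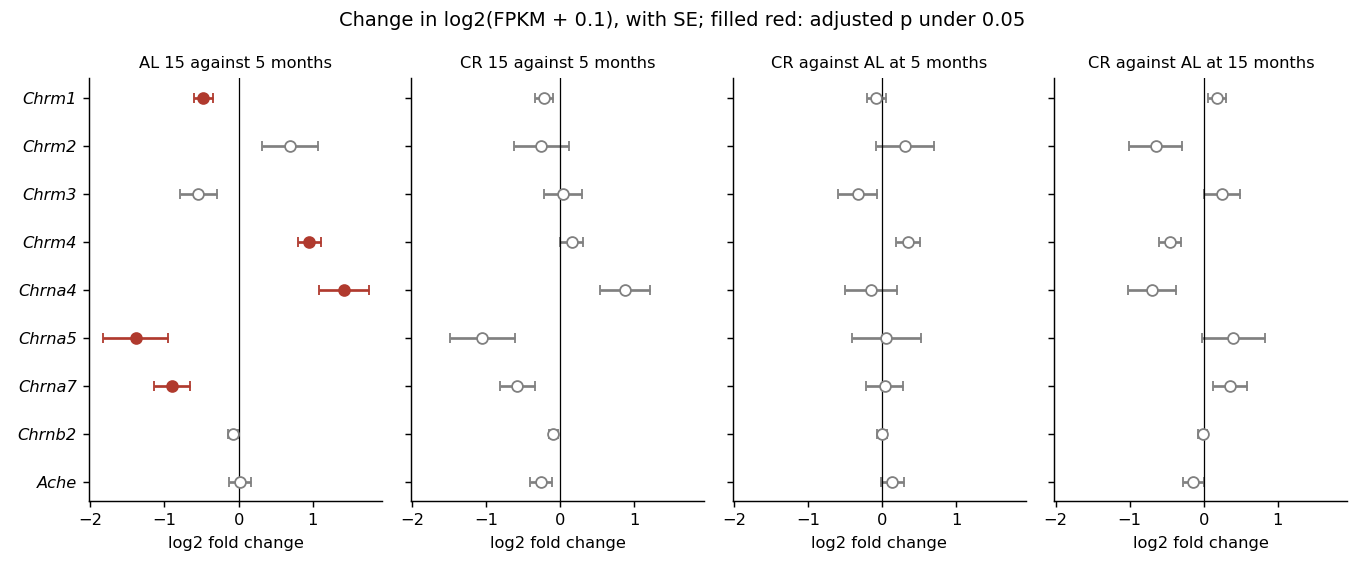
Log2 fold change of the 9 genes (horizontal axes, on the log2(FPKM + 0.1) scale, whiskers of 1 SE) in the 4 comparisons of 2 groups, with filled red points for an adjusted p under 0.05. The 5 filled points, Chrm1, Chrm4, Chrna4, Chrna5 and Chrna7, are all in AL mice at 15 against 5 months.

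At 5 months the diets were compared after the shorter feeding period, and limma called 0 of the 9 genes and 0 of all genes tested (0%), with 789 genes at an unadjusted p under 0.05. Chrm4 alone among the 9 had an unadjusted limma p under 0.05 (0.0431), as did 4.65% of all genes tested. It was higher in CR mice, with 12.7 ± 2.38 against 9.80 ± 0.913 FPKM (SD, n = 5 each), and 4 of 5 CR libraries were above the AL median. The log2 fold change was 0.35 ± 0.16 (SE), and the exact two-sided permutation p was 0.0635. The remaining 8 genes had log2 differences from -0.33 (Chrm3) to 0.31 (Chrm2). The diet groups overlapped in all 9 genes at 5 months and did not in 1.36% of all genes tested.

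At 15 months, where the study asked how CR alters the aged CA1, limma called 0 of the 9 genes, against 0.742% of all genes tested. By Cuffdiff, a different test, the study lists Chrna4 as lower and Chrna5 as higher under CR at this age, within its calcium signaling list. Both are given there as opposite in direction to normal aging. Chrm4 and Chrna4 had an unadjusted limma p under 0.05 (0.00667 and 0.0437), as had 17.1% of all genes tested. Chrm4 was lower in CR mice, at 14.3 ± 3.64 against 19.2 ± 3.09 FPKM (SD, n = 6 each). Its lowest, median and highest values were 10.6, 13.4 and 19.5 FPKM under CR and 15.1, 19.1 and 24.5 FPKM under AL, and 1 of 6 CR libraries was above the AL median. The log2 difference was -0.45 ± 0.15 (SE), with an adjusted p of 0.143 and an exact permutation p of 0.0281. Chrna4 was 10.05 ± 6.45 FPKM under CR and 14.1 ± 3.68 FPKM under AL, a log2 difference of -0.70 ± 0.32 (SE) with an adjusted p of 0.277.

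The other genes of the set had smaller or more variable differences between the old diet groups. Chrna7 was 12.5 ± 6.30 FPKM under CR and 9.21 ± 2.59 under AL, and Chrna5 was 1.74 ± 1.11 and 1.02 ± 0.225 FPKM (SD, n = 6 each). Their log2 differences were 0.36 ± 0.23 and 0.40 ± 0.42 (SE), with adjusted p of 0.443 and 0.657. Chrm1 was 39.6 ± 9.87 FPKM under CR and 34.1 ± 1.91 under AL, a log2 difference of 0.18 ± 0.12. Chrm2 had a log2 difference of -0.65 ± 0.36 (adjusted p = 0.368), Chrm3 of 0.25 ± 0.24, Ache of -0.14 ± 0.14 and Chrnb2 of -0.02 ± 0.06. Without CR replicate 3, whose region score was that of young libraries, the log2 differences were -0.37 for Chrm4, -0.41 for Chrna4, 0.27 for Chrna7 and 0.08 for Chrm1. Without CR replicate 0 Chrm4 was called, with -0.55 and an adjusted p of 0.0378. The old diet groups overlapped in all 9 genes and did not in 0.984% of all genes tested.

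Whether age acted differently under the diets was tested with the age by diet interaction. It was passed by none of the 9 genes and by 0 of all genes tested (0%), with 1301 genes (7.66%) at an unadjusted limma p under 0.05. Chrm4 had the smallest unadjusted limma p of the 9, 0.00163, with an interaction of -0.80 ± 0.22 (SE) on the log2 scale and an adjusted p of 0.608. In AL mice Chrm4 differed with age by 0.95 and in CR mice by 0.15. The largest interaction by size was that of Chrm2, -0.95 ± 0.53 (adjusted p = 0.678), and that of Chrm3 was 0.58 ± 0.36. The interaction was -0.55 ± 0.48 for Chrna4, 0.32 ± 0.34 for Chrna7, 0.34 ± 0.63 for Chrna5 and 0.26 ± 0.17 for Chrm1. The comparisons at 15 months and over age in AL mice share the old AL libraries, and their values are given side by side only.

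The other genes of the cholinergic pathway were followed through a list of 42, of which 35 passed the filter on low values. In AL mice 7 of the 35 were called with age, 20.0%, against 20.6% of all genes tested, and none was called in the other comparisons. Of 13 further receptor subunits, 8 were tested and 2 were called. Chrm5, the remaining muscarinic gene, fell from 3.27 ± 1.74 to 1.17 ± 1.49 FPKM (SD, n = 5 and n = 6), with a log2 fold change of -1.90 ± 0.64 (SE) and an adjusted p of 0.0399. Chrna2, a subunit of hippocampal interneurons, fell from 0.449 ± 0.110 to 0.210 ± 0.0939 FPKM, with a log2 fold change of -0.86 and an adjusted p of 0.0178. Chrna6 and Chrnb3, which the study's calcium list also holds, were at 0.895 FPKM or less in all libraries, with log2 fold changes of 0.92 and 0.79 and adjusted p of 0.117 and 0.205.

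Genes of acetylcholine supply were mostly at low levels. Chat, which makes acetylcholine, and Slc18a3, which loads it into vesicles, were at 0.245 FPKM or less in every library and were not tested. Of the 5 genes of this group that were tested, Slc44a1, a choline transporter of wide expression, was called, with 28.4 FPKM at 5 months and 18.4 FPKM at 15 months in AL mice and a log2 fold change of -0.63 ± 0.21 (SE, adjusted p = 0.0392). Bche, Colq, Prima1 and Slc5a7 were not called. None of 9 assembly factors and Ly6 partners of nicotinic receptors was called, among them Ric3, a chaperone of alpha7, with a log2 fold change of -0.13, and Lynx1, a brake on nicotinic receptors, with -0.42 (adjusted p = 0.133).

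Downstream of the muscarinic receptors, 4 of 13 genes were called with age in AL mice, against 20.6% of all genes tested. Gnaq, the G protein alpha subunit through which M1 and M3 act, fell from 66.1 to 47.1 FPKM, a log2 fold change of -0.49 ± 0.10 (SE) with an adjusted p of 0.00204. Kcnj6, a potassium channel opened by Gi-coupled receptors, fell by 0.89 on the log2 scale (adjusted p = 0.00726). Plcb4, a phospholipase C, rose from 5.12 to 9.49 FPKM, a log2 fold change of 0.78 (adjusted p = 0.0288). Plcb1, Gna11, Gnai1, Gnai2, Gnao1, Kcnj3, Kcnq3, Kcnq5 and Rgs4 were not called.

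**Figure D5:**
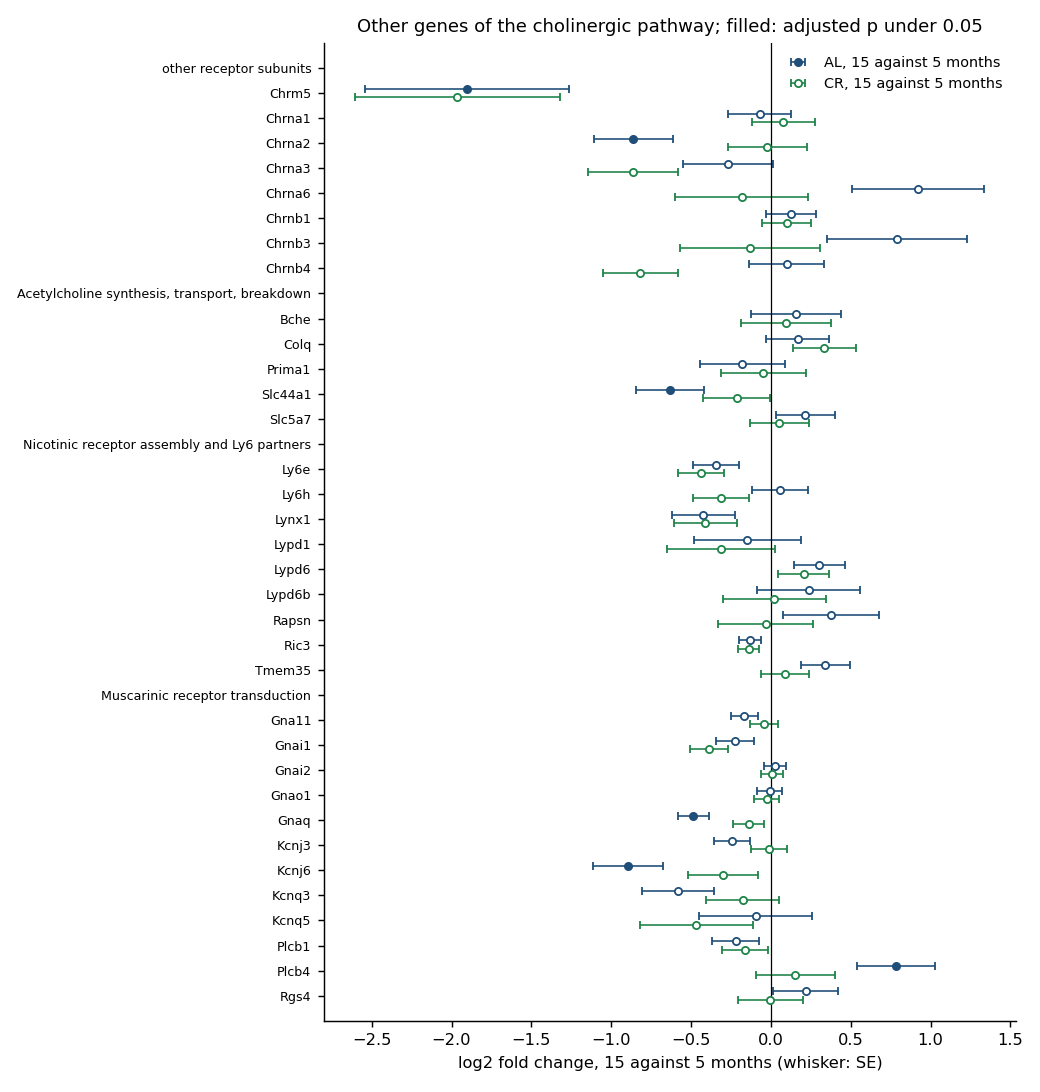
Log2 fold change at 15 against 5 months (horizontal axis, on the log2(FPKM + 0.1) scale, whiskers of 1 SE) of tested pathway genes by list, in AL mice (blue) and CR mice (green), with filled points for an adjusted p under 0.05. The filled points are all in AL mice: Chrm5, Chrna2, Slc44a1, Gnaq and Kcnj6 lower, and Plcb4 higher.

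The genes whose pattern over the 22 libraries was most like that of each member were sought among 13448 genes with a mean of at least 1 FPKM. These correlations are a description, because the libraries share their age groups and the region score. For Chrna4 they were Olfm2, Trim66 and Elmo1, with Pearson r of 0.98, 0.98 and 0.97, and for Chrm4 they were Fnbp1l, Dcbld2 and Bmp3 (r = 0.94, 0.93 and 0.93). Chrm1 was followed by Camta2, Cdc40 and Actr3 (r = 0.95, 0.94 and 0.93), and Chrna7 by Thsd4, Slc9a4 and Tbata (r = 0.93 for each). Weaker neighbors were Ndst3 for Chrna5 (r = 0.88), Oprd1 for Chrm2 (r = 0.88), Zyg11b for Chrm3 (r = 0.87) and Dchs1 for Ache (r = 0.81). Around the group means, r was 0.97 for Chrna4 and Olfm2, 0.91 for Chrm1 and Camta2, and 0.86 for Chrm4 and Fnbp1l.

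Promoter sequence was at hand for 8 of the 9 genes, in RefSeq on GRCm38.p6, and is shown for a gene that was higher and for a pair that were lower in old AL mice, chosen because these windows hold no exon of the gene in GENCODE. Each window has 200 bases, from 250 to 51 bases before the RefSeq transcript start, and is written 5′ to 3′ on the strand of the gene. Capitals mark the GC box GGGCGG, the CCAAT box CCAAT, the TATA box TATAAA, the E-box CACGTG and the CRE TGACGTCA, on either strand and with overlapping matches counted. The windows are Chrm4 at chr2:91921939-91922138, whose start lies upstream of the GENCODE gene model, Chrna7 at chr7:63212577-63212776, and the upstream of 2 starts of Chrna5 at chr9:54980630-54980829.
Chrm4: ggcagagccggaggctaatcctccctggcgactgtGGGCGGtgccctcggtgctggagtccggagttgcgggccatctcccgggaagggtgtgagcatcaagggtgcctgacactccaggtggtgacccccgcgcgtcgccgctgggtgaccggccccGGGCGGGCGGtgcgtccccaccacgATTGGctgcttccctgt
Chrna7: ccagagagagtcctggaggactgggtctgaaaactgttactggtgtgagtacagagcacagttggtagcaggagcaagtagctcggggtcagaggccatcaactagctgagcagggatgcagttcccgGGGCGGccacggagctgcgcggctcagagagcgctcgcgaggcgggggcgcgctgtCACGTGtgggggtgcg
Chrna5: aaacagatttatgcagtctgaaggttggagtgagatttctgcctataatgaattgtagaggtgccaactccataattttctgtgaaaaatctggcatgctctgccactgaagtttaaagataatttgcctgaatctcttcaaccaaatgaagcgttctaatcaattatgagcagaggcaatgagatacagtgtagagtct

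The Chrm4 window held 3 GC boxes, of which 2 overlap, and 1 CCAAT box, with 71% G and C and 18 CpG dinucleotides. The Chrna7 window held 1 GC box and 1 E-box, with 64% G and C and 14 CpG. The Chrna5 window shown held none of the motifs, with 38% G and C and 1 CpG. The window of the other Chrna5 start, at chr9:54981238-54981437, differed. It held 3 GC boxes, with 64% G and C and 12 CpG, and is not shown because 10 of its bases lie in exons of the gene. Over all 32851 RefSeq promoters of the same window, 24.6% held a GC box, 28.4% a CCAAT box, 9.14% a TATA box, 4.34% the E-box and 0.828% the CRE, and the medians were 51.5% G and C and 4 CpG. No TATA box or CRE match was found in the 9 windows of the 8 genes. These are matches of letters only.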

How the data were processed

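Hippocampal CA1 mRNA of 22 mice was sequenced, 1 library per mouse. The authors made base calls with bcl2fastq, mapped reads to mm10 with TopHat, discarded likely duplicates with Picard and deposited FPKM estimated by the Cufflinks package, with corrections for fragment bias and multi-mapped reads. The annotation release is not given in the sources used here. FPKM relates a level to transcript length and library total, so it shows relative, not absolute, amounts. Whole reads could not be recovered, the depth behind each value is unknown, and precision rests on the scatter among mice.

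A mean of at least 0.1 FPKM was required (16978 genes), and log2(FPKM + 0.1) was fitted over the 4 groups together with limma 3.58.1 under R 4.3.3 (eBayes with an intensity trend), for 5 contrasts with two-sided Benjamini-Hochberg adjusted p within each. For each member, group means on this scale were also set against all divisions of the libraries (exact two-sided permutation tests). The study itself used Cuffdiff. Python 3.11.15 with pandas 2.3.3, numpy 2.4.6, matplotlib 3.10.9 and scipy 1.17.1 produced tables and plots. All 9 members are named, with pathway genes that were called or that the study lists, and the genes most correlated with a member. Some genes of these lists are not reported here. Members, pathway lists and marker lists were chosen with earlier results of these data known. The marker lists were written from general knowledge (83 genes in 13 lists, 76 tested). Coordinates are from GENCODE M21 on GRCm38. The steps were tested on simulated data. Alternatives were other pseudocounts, filters, scalings and fits, a replicate block, marker scores as covariates and each library left out. Deviations from the group means of same-numbered libraries correlated at -0.139 to 0.163 over 31 pairs, above 0.1 in 2, so the numbers were not taken to pair mice.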

Additional observations from a re-analysis of the deposited data

Results flagged for a closer look

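In 36 groups of libraries (9 genes in 4 groups) the highest or lowest library was compared with its neighbors by Dixon's ratio, for which chance alone flags about 5% of groups, and 2 stood apart. Chrm3 in AL replicate 2 at 5 months, 23.8 FPKM, was high against a group median of 21.3 FPKM, in a group whose other 4 libraries lay within 21.2 to 21.8 FPKM. Chrnb2 in AL replicate 4 at 15 months, 12.9 FPKM, was low against a group median of 15.7 FPKM. No age by diet interaction of a member passed its test.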

How the results depend on the processing

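The 5 calls for age in AL mice held under other pseudocounts, filters, scalings and fits. They were 0 with the region score as a covariate, a score that cannot be told apart from age in AL mice. They were 2 with the thalamus and medial habenula score, and 4 to 5 when a library was left out, Chrna5 being the one lost. With the replicate block 6 were called, Chrm3 added, and no other call of a member changed. In the other comparisons 0 members were called under every setting except single libraries left out: 0 to 1 for age in CR mice (1 without CR replicate 3 or 4 at 15 months) and 0 to 1 for diet at 15 months (1 without CR replicate 0).

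Signs turned only in members that were not called, except Chrm1 for age in AL mice, at 0.11 with the region score, and the cause was not tested. With that score the other turns were Chrm2 for age in AL mice (-0.31), Chrm1 (0.13) and Chrm4 (-0.15) for age in CR mice, Chrm1 (-0.0895) and Chrna5 (-0.0891) for diet at 15 months, Chrnb2 for diet at 5 months (0.00073) and the Chrna5 interaction (-0.0937). With the thalamus and medial habenula score they were Ache for age in AL mice (-0.14), Chrna4 (0.066), Chrna7 (-0.036) and Chrnb2 (0.015) for diet at 5 months, Chrnb2 (0.034) and Ache (0.059) for diet at 15 months and the Chrnb2 interaction (0.019). With the interneuron score they were Ache for age in AL mice (-0.026), Chrm2 for age in CR mice (0.0067), Chrna5 for diet at 5 months (-0.11) and the Chrnb2 interaction (0.0201). With a common median they were Ache for age in AL mice (-0.027), Chrnb2 for diet at 15 months (0.011) and its interaction (0.026). Without small RNA rows they were Chrnb2 for age in AL mice (0.037) and for diet at 5 months (0.013), and with the replicate block Chrm3 for age in CR mice (-0.067). Libraries left out gave ranges across 0 of -0.031 to 0.12 for Ache with age in AL mice, -0.076 to 0.25 for Chrm3 with age in CR mice, -0.17 to 0.26, -0.056 to 0.089 and -0.025 to 0.032 for Chrna5, Chrna7 and Chrnb2 with diet at 5 months, -0.062 to 0.024 for Chrnb2 with diet at 15 months and -0.0617 to 0.0245 for its interaction.

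Over all genes, 3502 calls for age in AL mice were 0 with the region score and 1867 with the thalamus and medial habenula score. Their split of 1809 higher and 1693 lower became 1441 and 2286 with a common median and 3113 and 927 without small RNA rows, which moved the median of all genes by 0.11. The 570 calls for age in CR mice were 304 at a mean of at least 1 FPKM, 324 in a separate fit, 93 with the region score and 331 to 775 with a library left out. The 126 calls for diet at 15 months were 77 after quantile normalization, 195 without small RNA rows, 323 with the replicate block, 39 with the interneuron score, 0 with either other score or in a separate fit, and 15 to 732 with a library left out, 732 without CR replicate 0 at 15 months. Their split of 56 higher and 70 lower became 87 and 51 with a common median, 52 and 25 after quantile normalization and 31 and 164 without small RNA rows. For diet at 5 months and the interaction they were 0 to 1.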
